A study of Drosophila melanogaster with 3 samples.

Results

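The genes described here are 10 regulators and effectors of the Drosophila mesoderm and its muscles, taken from 13945 protein-coding genes on the 6 major chromosome arms: the transcription factor genes twi, tin, bap and Mef2, the receptor gene htl, the myoblast fusion genes kirre, rols and mbc, and the muscle and tendon genes sls and how. The genes were chosen by name for their known roles, with earlier results of these data known, and a peak was assigned to a gene when its summit fell inside the gene body or no further than 1000 bp from any annotated transcription start site (TSS) of that gene. The samples were embryos of Drosophila melanogaster collected from 0 to 24 h, of both sexes pooled, from a stable transgenic line (strain ets3-GFP) in which Ets65A carries GFP at its C-terminus; chromatin was sheared by sonication to 200 to 800 bp and precipitated with an antibody to GFP, although the antibody label of the samples names Ets65A. What drives the fusion, and whether the flies keep an untagged Ets65A, is not given in the labels. All 3 biological replicates, with 1 technical replicate each, came from this line and formed 1 group, so there was no untreated or wild-type group to compare with, and no test between groups was possible. Since whole embryos were used, a peak cannot be assigned to muscle or to any other cell type. The authors deposited peaks of each replicate (30000 each), peaks of the pooled replicates (28940) and the 2780 peaks that passed an irreproducible discovery rate (IDR) threshold, called IDR peaks; a rank given below counts from 1 for the highest signal value in a list. The lowest signal value among the IDR peaks was 71.8, and pooled peaks went down to 18.1 with a -log10 q of 0.0177, so the weaker pooled peaks are calls with little evidence of enrichment. The signal value is the authors' score per peak, its scale is not given in the sources used here, and peak lists hold no read counts, so depth is unknown.

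Members of the ETS family of transcription factors, to which Ets65A belongs, bind DNA around a GGAA core. In the early Drosophila embryo twi sets up the mesoderm, tin and then bap divide its dorsal part into heart and visceral muscle fates, and Mef2 switches on the genes of differentiating muscle. The FGF receptor encoded by htl directs the spreading of mesoderm cells. Body wall muscles then form by fusion of founder cells with fusion-competent myoblasts: kirre encodes the adhesion molecule on founder cells, rols an adaptor that links it to the cytoskeleton, and mbc an activator of Rac. The product of sls is a titin-like protein of the sarcomere, and how encodes an RNA-binding protein needed in tendon and muscle cells.

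The following stretches, from the forward (plus) strand of the dm6 build in the RefSeq genome sequence, show the 100 bp on either side of the strongest summit at each gene for which a sequence is printed, to let the ETS cores be seen where the signal was highest. Capitals mark every GGAA core, read on either strand as GGAA or TTCC. The stretch at tin surrounds a pooled peak below the IDR list, and the others surround IDR peaks. None of them overlaps an annotated untranslated region.
tin (chr3R:21378556-21378756): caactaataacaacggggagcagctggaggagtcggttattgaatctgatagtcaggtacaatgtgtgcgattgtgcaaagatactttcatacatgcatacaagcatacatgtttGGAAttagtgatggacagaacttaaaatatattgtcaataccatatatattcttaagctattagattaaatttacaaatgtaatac
htl (chr3R:18049551-18049751): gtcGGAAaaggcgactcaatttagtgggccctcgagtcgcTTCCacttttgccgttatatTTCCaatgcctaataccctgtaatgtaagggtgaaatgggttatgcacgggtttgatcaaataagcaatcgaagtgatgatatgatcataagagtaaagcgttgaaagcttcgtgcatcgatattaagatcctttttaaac
kirre (chrX:3097126-3097326): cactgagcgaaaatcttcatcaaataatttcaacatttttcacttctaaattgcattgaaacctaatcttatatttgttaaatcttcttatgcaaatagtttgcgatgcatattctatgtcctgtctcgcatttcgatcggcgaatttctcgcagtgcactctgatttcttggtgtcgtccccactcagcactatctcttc
rols (chr3L:12056879-12057079): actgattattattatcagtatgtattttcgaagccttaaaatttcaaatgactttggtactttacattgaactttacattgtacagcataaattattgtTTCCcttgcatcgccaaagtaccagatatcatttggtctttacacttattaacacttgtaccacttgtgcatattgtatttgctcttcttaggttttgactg
mbc (chr3R:23782869-23783069): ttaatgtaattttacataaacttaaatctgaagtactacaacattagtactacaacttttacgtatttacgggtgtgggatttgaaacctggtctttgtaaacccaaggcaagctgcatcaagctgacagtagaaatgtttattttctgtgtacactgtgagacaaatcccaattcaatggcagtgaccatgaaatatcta
sls (chr3L:2115777-2115977): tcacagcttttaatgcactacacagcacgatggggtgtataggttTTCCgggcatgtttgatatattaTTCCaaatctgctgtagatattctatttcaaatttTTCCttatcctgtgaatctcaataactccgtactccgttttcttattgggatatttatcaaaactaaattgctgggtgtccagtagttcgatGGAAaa
how (chr3R:22049202-22049402): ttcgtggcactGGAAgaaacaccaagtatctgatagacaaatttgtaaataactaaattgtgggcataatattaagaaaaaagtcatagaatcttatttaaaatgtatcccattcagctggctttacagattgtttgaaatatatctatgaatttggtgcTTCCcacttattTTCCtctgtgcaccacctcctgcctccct
The stretch at sls held 4 cores, those at htl and how 3 each, and those at tin and rols 1 each, while those at kirre and mbc held none. At rols the core began 1 bp before the summit and at sls the nearest began 3 bp after it; at htl the nearest began 40 bp and at how 60 bp away.

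Ets65A-eGFP was found at 7 of the 10 genes, with 20 IDR peaks in all. The genes without an IDR peak were twi, tin and bap, that is, the transcription factor genes other than Mef2. By the same placement 20.2% of all protein-coding genes had an IDR peak. The share was higher in each longer class of genes: 15.8% for genes under 5 kb, 30.6% for 5 to 20 kb, 37.5% for 20 to 50 kb and 46.9% for 50 kb and over. The genes under 5 kb, tin and bap, had no IDR peak. Both genes of 5 to 20 kb, htl and mbc, had an IDR peak, as did both of 20 to 50 kb, Mef2 and how. Of the 4 genes of 50 kb and over, kirre, rols and sls had an IDR peak and twi did not. The 10 genes are not independent draws, and their count was not tested.

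**Figure D1:**
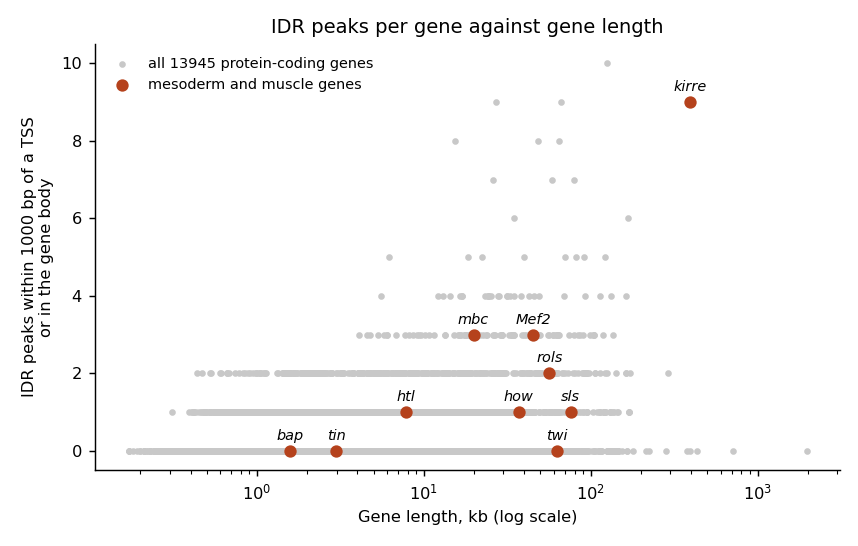
IDR peaks per gene (y axis) against gene length in kb (x axis, log scale) for all 13945 protein-coding genes (grey points) and the 10 mesoderm and muscle genes (red points). kirre has 9 IDR peaks at 394 kb, mbc and Mef2 have 3 each, and twi, tin and bap have none.

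Most intronic IDR peaks at these genes belonged to kirre. Of all 20 IDR peaks, 5 were promoter peaks (within 1000 bp of a TSS of the gene itself), 14 were in introns further away and 1 was in the 5′ UTR of a Mef2 transcript. Coding exons held no IDR peak. kirre alone held 9 of the 14 intronic peaks, and of the 11 IDR peaks at the other genes 5 were promoter peaks, 5 were intronic and 1 was in the 5′ UTR. Promoter IDR peaks were present at 5 genes (Mef2, htl, rols, mbc and sls), against 17.9% of all protein-coding genes, and kirre and how had IDR peaks in the gene body only. When the TSS of any protein-coding gene was counted, 8 of the 20 summits (40%) lay within 1000 bp of such a TSS, against 67.4% of all 2780 IDR summits. They were 3 of the 9 summits in kirre and 5 of the 11 at the other genes. For 7 of the 20, the nearest TSS belonged to another gene. The median signal value of the 20 peaks was 102, with a range of 71.8 to 253, and that of all IDR peaks was 110.2.

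Pooled peaks below the IDR list added 136 at these genes, for 156 pooled peaks in all. Of those 136, 116 were in introns, 9 in coding exons, 8 at promoters, 2 in 3′ UTRs and 1 in a 5′ UTR. kirre alone held 80 of the 156 pooled peaks. The placement of all pooled peaks of the series is not given here, so these counts have no background. At least 1 pooled peak was found at 9 of the 10 genes, against 68.8% of all protein-coding genes, and bap was the exception. Per 10 kb, the gene bodies with the 1000 bp around their TSSs held 0.284 IDR peaks and 2.21 pooled peaks, while the 6 arms as a whole held 0.208 and 2.16.

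**Figure D2:**
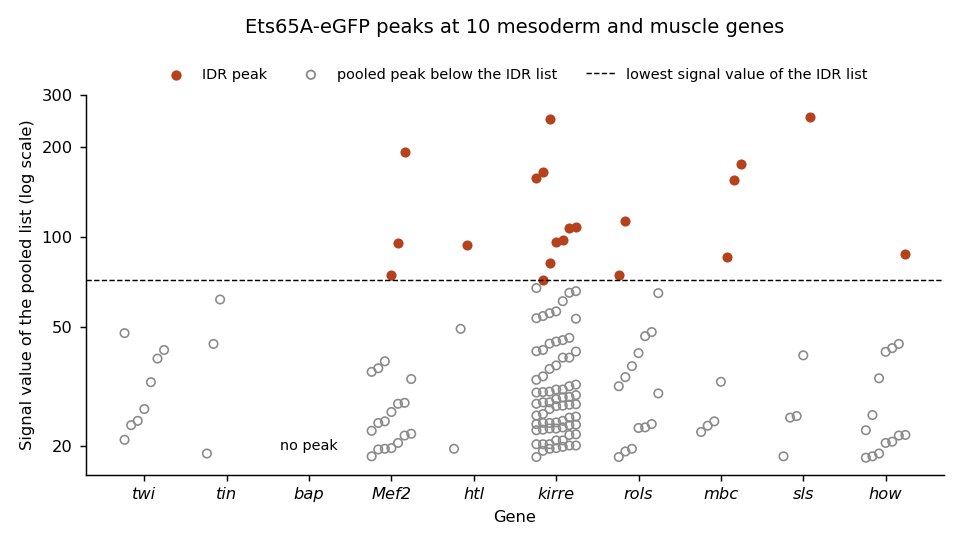
Signal value in the pooled list (y axis, log scale) of every peak at each gene (x axis), with IDR peaks as filled red points, other pooled peaks as open grey points and the lowest IDR signal value, 71.8, as a dashed line. sls and kirre reach 253 and 249, every peak of twi and tin lies under the line, and bap has no peak.

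twi (FBgn0003900, 2R, 22985374 to 23048325, plus strand), the basic helix-loop-helix gene at the head of the mesoderm cascade, had no IDR peak. Its annotation includes 1 transcript that starts at 22985374, far upstream of the other TSSs at 23046108 and 23046322, and all 8 pooled peaks lay in introns between these starts. Their signal values ran from 20.9 to 47.6. None lay within 1000 bp of a TSS of twi. The strongest, at summit 23003257, had rank 5079 in the pooled list and ranks 20797, 5012 and 6163 in replicates 1, 2 and 3, outside the 2780 strongest of each. The next peak in strength, at 23002065 with 41.8, was not listed in replicate 1. The nearest TSS to each of the 8 was that of another gene, CG9896 or CG42741.

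tin (FBgn0004110, 3R, 21378977 to 21381970, plus strand), a homeobox gene of the heart and visceral mesoderm, had its strongest peak below the IDR list. Its promoter held a pooled peak 321 bp upstream of the TSS (summit 21378656) with a signal value of 61.7, rank 3497 and -log10 q of 3.37. The overlapping replicate peaks had ranks 3240, 5942 and 3324, all outside the 2780 strongest. A second pooled peak at the promoter, 118 bp upstream, had 43.8 and overlapped the same replicate peaks, and the third, in a coding exon, had 18.8. The closest IDR peak, 1571 bp from the gene with a signal value of 93.9, lay 5 bp from the TSS of mod(mdg4), and counting 2000 bp from a TSS would assign it to tin.

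bap (FBgn0004862, 3R, 21388880 to 21390449, plus strand), the homeobox gene of the visceral mesoderm, had no pooled peak. The nearest one was 798 bp past the gene, with a signal value of 19.4 and a -log10 q of 0.0476. The nearest IDR peak was the one at mod(mdg4), 11474 bp away.

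Mef2 (FBgn0011656, 2R, 9913496 to 9958858, minus strand), which encodes the MADS-box activator of muscle genes, had 3 IDR peaks among 20 pooled peaks. Only 138 protein-coding genes (0.99%) had 3 or more IDR peaks. Mef2 is also a long gene at 45.4 kb, a length that only 370 protein-coding genes reach. It held 0.661 IDR peaks per 10 kb, against 0.208 over the arms. The strongest IDR peak of Mef2, at summit 9942978, had a signal value of 193 (rank 459). In replicates 1, 2 and 3 its signal values were 41.2, 98 and 50 and its ranks 787, 260 and 871. It lay 1786 bp downstream of the TSS at 9944764, in the 5′ UTR of a Mef2 transcript. The promoter peak, 81 bp upstream of the most distal TSS at 9958858, had 95.7 and ranks 1570, 2287 and 1499. Both peaks were among the 2780 strongest in every replicate. The third, in an intron at 9949452, had 74.3 and was among the strongest in replicate 2 alone, with ranks 4291, 1773 and 5880. The TSS at 9929615, shared by 8 transcripts, had a single pooled peak of 20.4 within 1000 bp. A peak of 656, rank 22, stood 1060 bp outside the gene at the TSS of Pal1, and would count for Mef2 at a limit of 2000 bp.

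htl (FBgn0010389, 3R, 18045216 to 18052984, minus strand), the FGF receptor gene, had 1 IDR peak among 3 pooled peaks. It lay 285 bp upstream of the internal TSS at 18049366, where 2 transcripts start, and had a signal value of 94.2 (rank 1834). Its signal values in replicates 1, 2 and 3 were 29.2, 25.8 and 35.5 and its ranks 1420, 3372 and 1735, so it was outside the 2780 strongest in replicate 2. A pooled peak of 49.2 at 18049850 overlapped the same replicate peaks. No peak lay within 1000 bp of the outer TSS at 18052984.

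kirre (FBgn0028369, X, 2740384 to 3134532, plus strand), the founder cell adhesion gene, had the most peaks, 9 in the IDR list and 80 in the pooled list. Only 4 protein-coding genes had 9 or more IDR peaks and 1 had more. kirre is also among the 5 longest protein-coding genes at 394 kb, and its 0.228 IDR peaks per 10 kb were close to the 0.208 of the arms. All 9 were in introns and none was at a kirre promoter, whose highest pooled signal value was 30.2. The strongest, at 3097226, was 2324 bp upstream of the TSS at 3099550. It had a signal value of 249 (rank 250). In replicates 1, 2 and 3 its signal values were 79.9, 101 and 59.2 and its ranks 187, 239 and 603, among the strongest of each.

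Among the other IDR peaks in kirre, some ranked far lower in 1 replicate than in the others. The peak at 2786732 had 165 and ranks 1115, 749 and 434, and that at 2744237 had 157 and ranks 1335, 547 and 814. Both were high in all 3 replicates, as was the peak at 3046179, which had 97.9 and ranks 2133, 1371 and 2672. The peak at 2743256 had 108, with ranks 1108 and 1475 in replicates 2 and 3 but 11139 in replicate 1. The peak at 2919977 had 96.1, with ranks 1742 and 1289 in replicates 2 and 3 and 5417 in replicate 1. In both, replicate 1 was the low one. The peak at 3008022 had 81.7 and rank 8465 in replicate 3, against 1893 and 1665 in replicates 1 and 2. The peak at 3086057 had 107, with rank 3079 in replicate 3 against 1396 and 1272, and that at 2787430, the last of the IDR list at 71.8, had ranks 4889, 2661 and 1736. Both were thus outside the strongest of a single replicate. Some of these summits lay at the start of other genes inside kirre: those at 2743256 and 2744237 were 298 and 161 bp from a TSS of Syx4, and that at 2919977 was 142 bp from a TSS of CG3588.

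rols (FBgn0041096, 3L, 12008225 to 12064859, minus strand), the adaptor gene of myoblast fusion, had 2 IDR peaks among 16 pooled peaks. The first lay 505 bp upstream of the internal TSS at 12056474, where 6 transcripts start, and had a signal value of 113 (rank 1337). Its signal values in replicates 1, 2 and 3 were 40.0, 37.8 and 23.5 and its ranks 844, 1837 and 3734, so replicate 3 was the low one. The second, in an intron 1836 bp downstream of the outer TSS at 12064859, had 74.6 and ranks 4100, 2573 and 4404. That outer TSS, where 3 transcripts start, had no peak within 1000 bp. An intronic peak at 12053948, with 64.8 and rank 3250, was close below the IDR list.

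mbc (FBgn0015513, 3R, 23781765 to 23801634, plus strand), the Rac activator gene, had 3 IDR peaks among 7 pooled peaks, all 3 among the strongest in every replicate. They lay within the first 2466 bp of the gene or just before it. The strongest was in an intron 1204 bp downstream of the TSS, with a signal value of 175 (rank 571) and replicate ranks of 420, 881 and 625. Its signal values in replicates 1, 2 and 3 were 56.5, 55.5 and 58. The promoter peak, 139 bp upstream of the TSS, had 155 and ranks 245, 1183 and 1823. It was only 5 bp from a TSS of Nup98-96, a gene of nuclear pore proteins, so it lay at the TSSs of both genes. The peak 2466 bp downstream had 85.9 and ranks 1595, 1874 and 1483. The remaining 4 pooled peaks, all intronic, were between 22.2 and 32.7, and no replicate listed any of them among its strongest.

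sls (FBgn0086906, 3L, 2039681 to 2115611, minus strand), the titin-like gene of the sarcomere, had the strongest peak of all 10 genes. It was the single IDR peak of sls and lay 266 bp upstream of the only TSS, which 13 transcripts share. Its signal value was 253 (rank 240), and in replicates 1, 2 and 3 it had 62.4, 105 and 85.8. The ranks there were 338, 215 and 244, high in each. The other 4 pooled peaks of this 75.9 kb gene ran from 18.4 to 40.1. sls had 0.658 pooled peaks per 10 kb, against 2.16 over the arms.

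how (FBgn0264491, 3R, 22042191 to 22079321, plus strand), the RNA-binding gene of tendon and muscle, had 1 IDR peak among 14 pooled peaks. It lay in an intron 7111 bp downstream of the TSS and had a signal value of 87.4 (rank 2065). Its signal values in replicates 1, 2 and 3 were 21.5, 43.2 and 21.3 and its ranks 2376, 1451 and 4483, so it was outside the strongest of replicate 3. The promoter held pooled peaks of 41.2 and 25.3, at 352 and 80 bp upstream of the single TSS. The first overlapped peaks at ranks 6260 and 3197 in replicates 1 and 2 and none in replicate 3. The second overlapped the same peaks of replicates 1 and 2 and also a peak at rank 5867 in replicate 3.

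**Figure D3:**
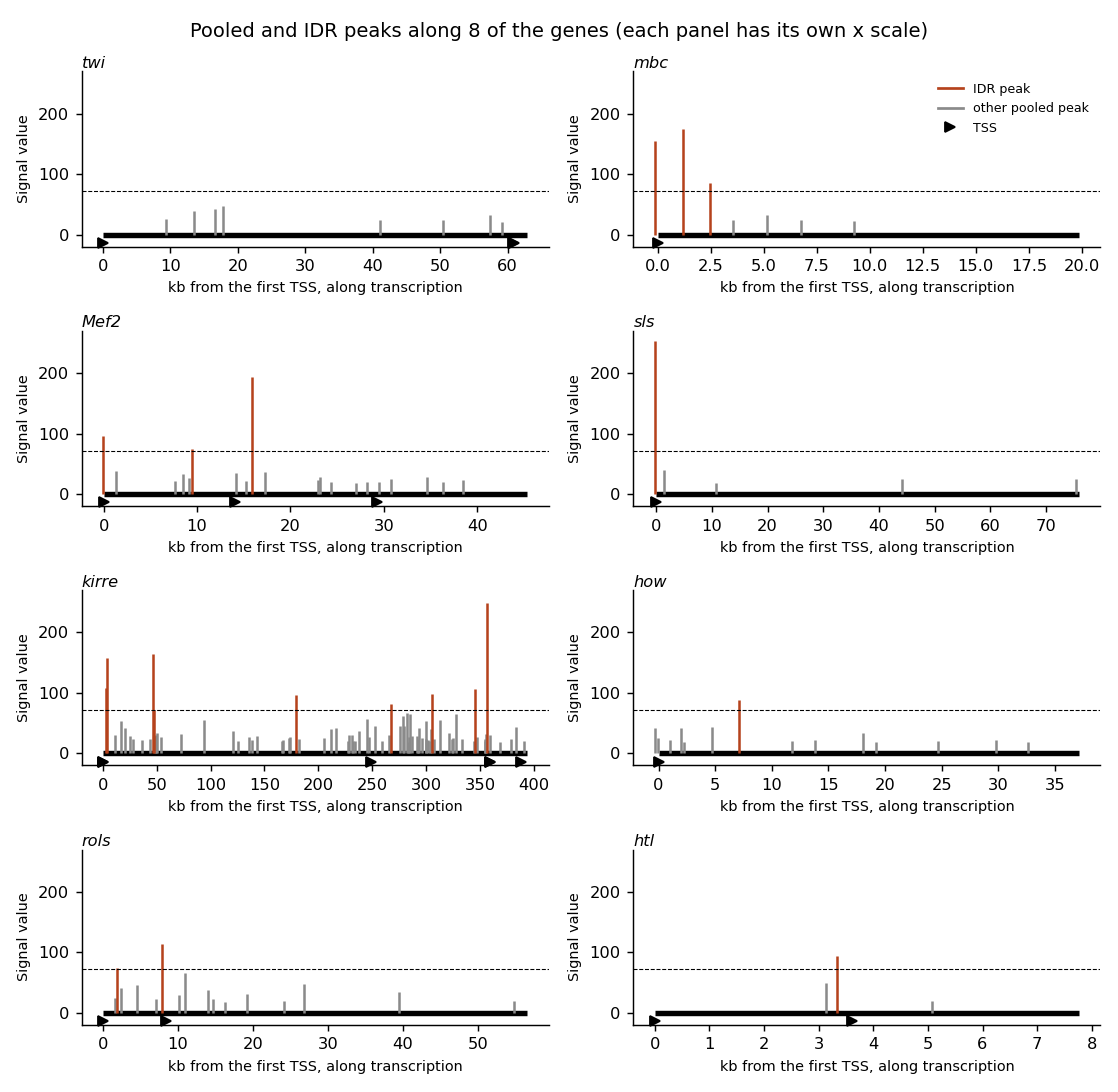
Signal value (y axis) of pooled peaks along 8 of the genes, as distance in kb from the first TSS in the direction of transcription (x axis, a scale of its own in each panel); red lines are IDR peaks, grey lines other pooled peaks, the black bar the gene, arrowheads its TSSs and the dashed line 71.8. The IDR peak of sls stands at its TSS. Those of mbc lie in its first 2466 bp or just before it, while those of kirre are spread over the gene.

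Replicates differed in how strongly they held these peaks. Of the 20, 10 were matched by a peak among the 2780 strongest of all 3 replicates (an overlap of at least 1 bp), 8 in 2 replicates and 2 in 1 replicate, against 59.4% of all IDR peaks matched in all 3. That count depended on the matching rule. It was 6 (46.4% of all IDR peaks) when the overlap had to cover 50% of both peaks. With replicate summits within 100 bp it was 8 (51.6%). It was 6 (32.2%) with the 1390 strongest peaks of each replicate and 17 (83.1%) with the 5560 strongest. The 10 were at 4 genes, namely kirre (4), mbc (3), Mef2 (2) and sls (1). Replicate by replicate, 15 of the 20 were among the strongest in replicate 1, 19 in replicate 2 and 14 in replicate 3, and for all IDR peaks the shares were 77.5%, 86.9% and 81.4%. Median ranks of the 20 were 1495, 1411 and 1617. Replicate 3 gave the worst rank of the 3 for 10 peaks and replicate 2 the best for 10. The strongest peaks shared by replicates 2 and 3 were also used in place of the IDR list. Then 4 of the 10 genes had a peak, against 5 without replicate 2 and 6 without replicate 3. The share of all protein-coding genes under these shared lists is not given here, so these gene counts have no background. Of the pooled peaks below the IDR list, 33 were listed in all 3 replicates, 52 in 2, 43 in 1 and 8 in none. The shares over all pooled peaks below the IDR list are not given here. Neighbouring pooled peaks could match the same replicate peak, as at tin, or that of an IDR peak, as at htl. The 33 are thus not all separate sites.

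**Figure D4:**
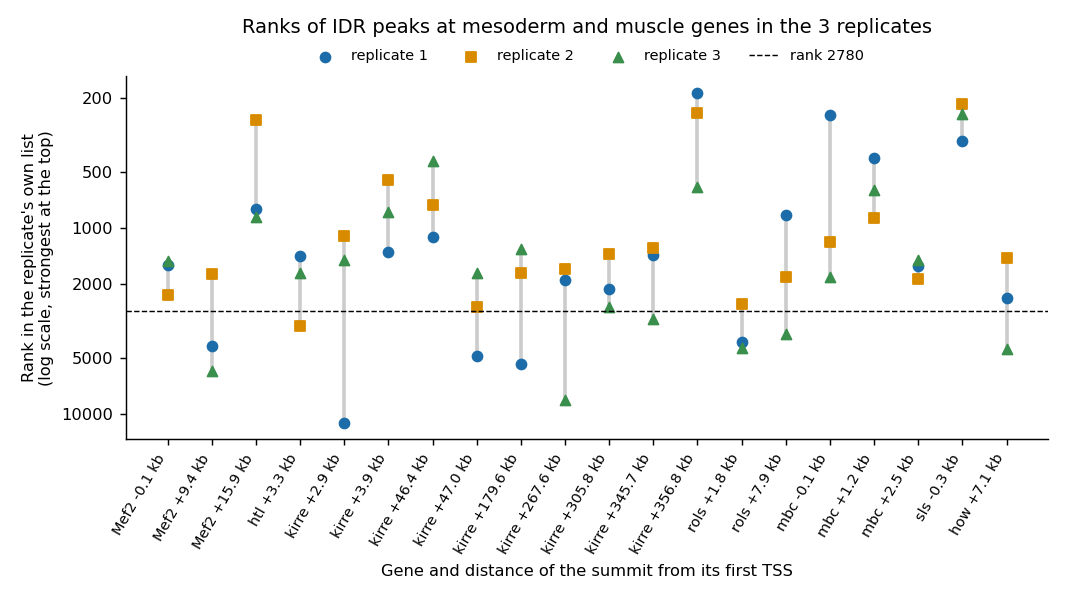
Rank of each of the 20 IDR peaks (x axis, named by gene and distance from its first TSS) in the own list of replicates 1, 2 and 3 (y axis, log scale, strongest at the top), with a dashed line at rank 2780. The 3 points of sls lie between 215 and 338, and the lowest point is kirre at rank 11139 in replicate 1.

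The GGAA core, the shortest of the 9 motifs searched, was the only one found in more than 1 of the 20 windows. So short a motif recurs often in any sequence, and how often it would be met by chance was not computed. Each motif was sought on both strands within 100 bp of a summit, and matches of different motifs may overlap. The ETS core GGAA was in 12 of 20 windows (60%) and in 75.9% of all 2780 IDR windows, with a mean of 1.5 and 1.48 matches per window. The longer ETS core CCGGAA was in 1 window, at sls, and in 5.61% of all. The E-box bound by Twist, CATATG, was in 1 window, at mbc, and in 6.76% of all. The Tinman site TCAAGTG was in 0 of 20 windows and in 3.49% of all, and the Mef2 site was in 1 window, at kirre, and in 10.4% of all. The Snail-class E-box CAGGTG was in 1 window, at the promoter of Mef2, and in 6.08% of all. The same Mef2 window held 2 matches to the M1BP element GGTCACAC, which is in 3.88% of all. The element TATCGATA, bound by Dref, was in 0 windows and in 5.83% of all, and the GAGA element GAGAG was in 1, at kirre, and in 22.6% of all. With 20 windows, 1 window is 5%, and the differences between these shares were not tested. GC content was 36.4% in the windows of these genes and 37.8% in all.

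Other genes of the same processes, 92 in all from lists by role, had an IDR peak in 25 cases (27.2%), against 20.2% of all protein-coding genes. Their median length was 11.8 kb, and the shares by length given above apply to them too. Of 27 other mesoderm and muscle transcription factor genes, 3 had one, none at a promoter: zfh1, a zinc finger homeobox gene, had a signal value of 212, caup, an Iroquois gene, 79.5, and nau, the MyoD homologue, 78.4 (nearest to the TSS of CG10300). Of 9 genes of FGF signalling, 6 had one. They were drk, an adaptor gene (254, nearest to the TSS of mars), aop, an ETS repressor gene (211, with 5 IDR peaks), the ligand gene ths (181), the ETS activator gene pnt (118, with 3), sty, an inhibitor gene (97.2), and csw, a phosphatase gene (76.8). Their median length of 23.8 kb was the highest of the lists.

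Among 15 other myoblast fusion genes, 4 had an IDR peak. They were the actin nucleation genes WASp (241), Hem (147, nearest to the TSS of IleRS) and Vrp1 (97.8), each at the promoter, and siz, an Arf exchange factor gene (112, in an intron, with 3 IDR peaks). Of 25 genes of the sarcomere and muscle structure, 4 had one. The highest were the nuclear positioning gene Msp300 (269, at the promoter) and the tropomodulin gene tmod (265, in an intron), followed by Actn (119.9, nearest to the TSS of usp) and Obsc (74.8, in a coding exon, nearest to the TSS of CG3860). Of 16 genes of muscle attachment and tendon, 8 had one. At promoters were those of Pax (214), the integrin gene mys (141), wech (92.6) and the laminin gene LanA (74.9), and in introns those of the integrin gene mew (173, nearest to the TSS of CG32639), the tendon factor gene sr (132), Grip (87.2, nearest to the TSS of CG5966) and the integrin gene if (84.2). Median gene length was 5.62 kb for the fusion list, 9.11 kb for the sarcomere list and 17.4 kb for the attachment list. Of all protein-coding genes 20.2% had an IDR peak, and the share was higher in longer genes. These lists were described by counts and were not tested.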

How the data were processed

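Chromatin immunoprecipitation of a GFP fusion of Ets65A was sequenced in 3 replicates of 1 group. Per the file notes, the authors made a dm6 peak list per replicate and 1 from the pooled alignments, each also using 1 further file whose kind is not given, and derived the IDR list from these. The deposited signal value is a score, and the deposited q-value is given as -log10 q. Aligner, peak caller and the value of the IDR threshold: not given in the sources used here. The depth per sample is unknown. The dm3 lists, read alignments and any control library were not analysed here. The deposited q-values reached a ceiling, so ranks are by score.

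Gene models were those of Ensembl release 115 (BDGP6.54), and sequence the RefSeq assembly of the dm6 build, in which 99.6% of 30662 coding transcripts began with ATG and 0 peaks ran past the end of an arm. TSSs of all transcripts were used. Each peak was matched to the overlapping replicate peak of highest score (at least 1 bp). Of 94 wider-list symbols, 1 was not found and 1 named a gene already listed. Named genes were the 10 genes, every wider-list gene with an IDR peak and genes whose TSS was nearest to a described peak. Genes, lists and motifs were chosen with earlier results of these data known. Replicate numbers are those of the labels. Placement was tested on simulated data. Python 3.11.15, numpy 2.4.6 and pandas 2.3.3 were used. The alternatives tried were other distances, the gene body left out, midpoint or overlap in place of the summit, canonical transcripts, stricter lists, other matching rules and leaving out each replicate.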

Additional observations from a re-analysis of the deposited data

How the results depend on the processing

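At TSS limits of 250, 500 and 2000 bp, by midpoint, by any overlap and with canonical transcripts, the number of genes with an IDR peak stayed between 6 and 8, that of IDR peaks between 19 and 22 and that of pooled peaks between 153 and 161. With the gene body left out, 5 IDR peaks at 5 genes and 13 pooled peaks at 8 genes were counted, and 12 genes of the wider lists. The 1390 IDR peaks of highest signal left 8 IDR peaks at 5 genes, and a -log10 q of at least 2 left 34 pooled peaks; no peak reached the planned limit of 5. Peaks among the strongest of every replicate numbered 6 when the overlap had to cover 50% of both peaks. They numbered 8 with replicate summits within 100 bp and 6 with the 1390 strongest peaks of each replicate. With the 5560 strongest they numbered 17, and with a replicate left out 11 to 14. A further alternative, added with the data seen, replaced the IDR list by strongest peaks shared by the remaining pair of replicates. It gave 13 peaks at 4 genes without replicate 1, 11 at 5 genes without replicate 2 and 14 at 6 genes without replicate 3. These peak counts equal those just given with a replicate left out, so they are not a separate check. The share of all protein-coding genes with an IDR peak was 16.8%, 18.8% and 23.2% at 250, 500 and 2000 bp. Without the gene body it was 17.9%. No such share is given for the 1390 IDR peaks, for pooled peaks at promoters or for peaks shared by a pair of replicates. Of the strongest values per gene, those of tin (93.9) and Mef2 (656) changed, at 2000 bp. The wider lists gave 24 to 29 genes at the other distances. Lists without read counts set no limit on how small a true peak could be missed.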
